A study of Mus musculus with 20 samples.

Results

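The AKFP organoids are mouse intestinal organoids labelled *Mettl3*-/- and, per the labels, infected with retrovirus to overexpress 4 factor genes, *Ascl2*, *Klf9*, *Fosb* and *Purb*. They were taken by their label and hold 2 of the 8 organoid libraries and 2 of the 20 libraries of the series. They were set against 4 other libraries labelled *Mettl3*-/-: 2 of KO organoids, whose labels name no factor, and 2 of AKF organoids, whose labels name *Ascl2*, *Klf9* and *Fosb* without *Purb*. The level of 1 of the 4 factor genes, *Klf9*, rose in AKFP against these 4 libraries, and that of *Fosb* fell. The 2 WT organoid libraries are given as a further level and were not compared. AKFP, KO and AKF organoids had 4-OHT for 2 days, given per the labels to delete *Mettl3* and to switch on the factors, and WT organoids had ethanol for 2 days. Per the labels all are C57BL/6, and the infected organoids came from mice with the *Mettl3*fl/fl, Lgr5-EGFP-IRES-CreERT2 and Villin-CreERT2 alleles, so Cre is driven in *Lgr5*-expressing cells and in the whole epithelium. Cultures stood in Matrigel with ENR medium (EGF, Noggin and R-spondin1), infected cultures were selected with puromycin, and live cells were sorted by flow cytometry before RNA extraction. The labels do not say whether KO and WT organoids were selected with puromycin. KO and WT titles carry "m3-flag", a term the labels leave undefined, and AKFP and AKF titles do not. Levels are in FPKM, that is, fragment counts divided by transcript length and library size.

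METTL3 is the catalytic subunit of the complex that writes m6A, a methyl mark on adenosines of messenger RNA. Intestinal organoids hold cycling stem cells and their offspring, namely Paneth cells, which secrete antimicrobial peptides, goblet cells, hormone-producing enteroendocrine cells and absorptive enterocytes. ASCL2 is a transcription factor of crypt stem cells, KLF9 is a Krüppel-like factor induced by glucocorticoids, FOSB is a subunit of the AP-1 factor and PURB is a single-stranded nucleic acid binding protein.

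The AKFP libraries stood apart from the other 6 in sex-linked genes, although the labels give 1 strain and no sex. *Xist*, the RNA that coats the inactive X chromosome, stood at 47.5 and 33.3 FPKM in the AKFP libraries and at 0.0153 FPKM or less in each of the other 6 organoid libraries. The Y-linked genes *Ddx3y*, *Eif2s3y*, *Kdm5d* and *Uty* were listed at 0 in both AKFP libraries, while *Ddx3y* stood at 6.71 and 6.64 FPKM in KO, 9.03 and 7.39 in AKF, and 9.25 and 10.6 in WT. *Eif2s3y* stood at 13.4 and 12.9 FPKM in KO, 13.6 and 13.9 in AKF, and 18.5 and 17.6 in WT. Of the 9 Y-linked genes that passed the filter, 5 averaged under 0.01 FPKM in AKFP and the other 4 did not. In everything below, the line that the AKFP cultures came from and the factors cannot be told apart. Tests were kept to autosomal genes for this reason.

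The epithelial label held in all 8 libraries: *Epcam*, an adhesion protein of epithelium, stood between 353 and 455 FPKM, and 1 of 10 identity genes rose and 1 fell. Of 12 immune markers 10 stayed under 1 FPKM in every library, and 4 of these were at 0 in all 8. Of the 14 stromal and endothelial markers 12 stayed under 1 FPKM in every library, and their summed level was 3.03 and 3.6 FPKM in AKFP, 5.07 and 5.57 in KO, and 4.69 and 5.12 in AKF. The 2 tested stromal markers went opposite ways, with the filament gene *Vim* falling by 0.98 and the receptor gene *Pdgfrb* rising by 0.66. The *Pdgfrb* call was lost with the filter over the KO and AKF libraries alone, and without either AKFP library. The 2 AKFP libraries differed from each other by a median of 0.0993 on the log2(FPKM + 1) scale, KO libraries by 0.098 and AKF libraries by 0.13, whereas AKFP libraries differed from KO and AKF libraries by 0.202 to 0.274. Annotated small and structural RNA genes took 2.83% and 1.99% of the summed FPKM in AKFP libraries, 6.97% and 6.74% in KO, 6.89% and 6.19% in AKF, and 3.01% and 2.70% in WT. The summed FPKM was not the same in all libraries, from 364538 in WT replicate 2 to 411442 in AKF replicate 1. Because FPKM is divided by transcript length, a share of summed FPKM is not a share of fragments. The part of this RNA in the comparisons below was not tested.

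**Figure D1:**
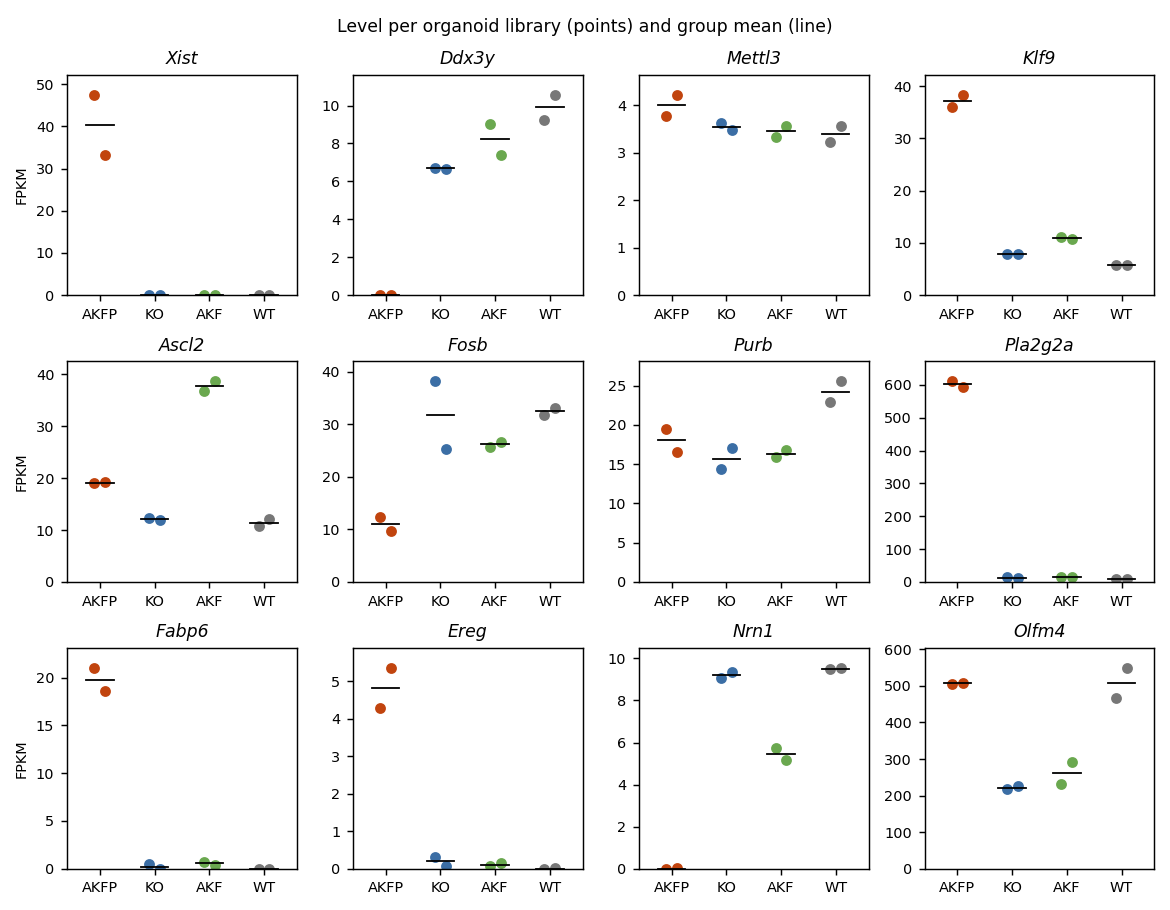
Level in FPKM of 12 genes in each organoid library (points, 2 per group) with the group mean (line), for AKFP, KO, AKF and WT organoids. *Xist* and *Ddx3y* separate AKFP from the other 3 groups in opposite directions, *Klf9*, *Pla2g2a*, *Fabp6* and *Ereg* are high in AKFP and *Nrn1* is near 0 there, while *Ascl2* is highest in AKF.

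By position alone, both AKFP values lay above all 4 KO and AKF values for 4009 of the 12040 autosomal genes tested (33.3%) and below them for 2938 (24.4%), or 57.7% in all. A gene was called, and is said to have risen or fallen, where its adjusted p was under 0.05 as well. Of the 12040 genes, 2310 (19.2%) rose and 2041 (17%) fell in AKFP organoids, 4351 (36.1%) in all, by limma on log2(FPKM + 1) with Benjamini-Hochberg adjustment. Most called differences were under 1 on the log2 scale: 97 of the 2310 rises and 279 of the 2041 falls reached 1 or more. The median absolute difference over all tested genes, called or not, was 0.219. Among 100 tested genes that were under 1 FPKM in all 4 KO and AKF libraries, 74 rose, and among 473 that were under 1 in both AKFP libraries, 286 fell. The filter, 1 FPKM or more in at least 2 of the 6 libraries, fixed these directions. The 100 passed it only through AKFP, so both AKFP values lay above the others, and the 473 could not be called higher. Falls named below that are among the 473 include *Nrn1*, *Pyroxd2*, *AI506816*, *Exosc6*, *Ifi27l2a*, *Oas1g*, *Cybrd1*, *Angptl4* and *Ccn2*. Against KO alone 1609 genes rose (13.4%) and 1651 fell (13.7%), together 27.1%, and against AKF alone 1567 rose (13%) and 1575 fell (13.1%), together 26.1%. Both of these share the AKFP libraries. The count of 4351 was 2186 without AKFP replicate 1, 1426 without AKFP replicate 2 and 2771 without KO replicate 1.

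**Figure D2:**
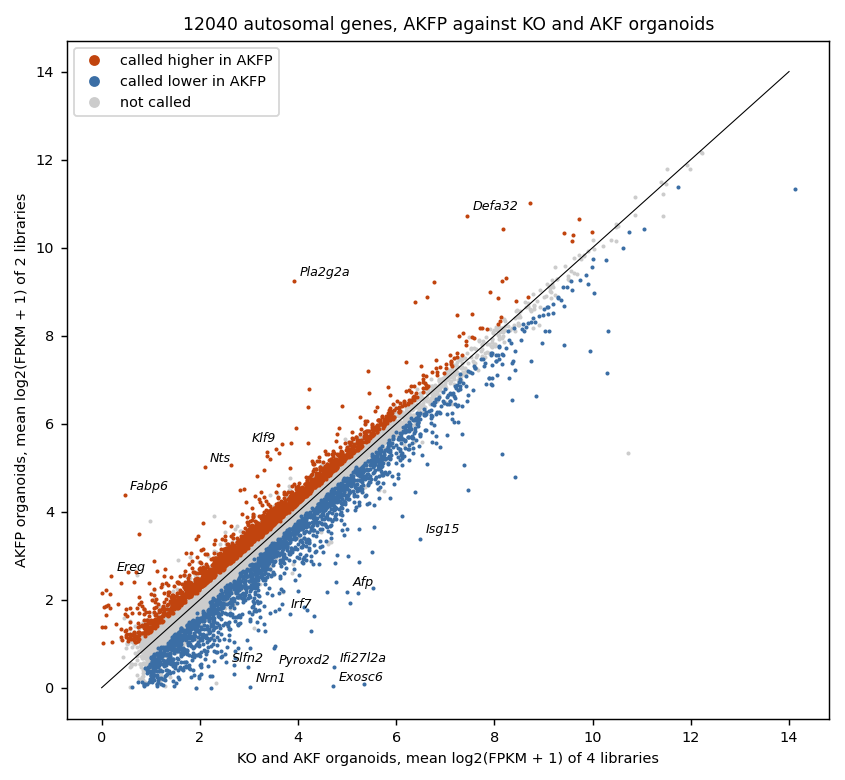
Mean log2(FPKM + 1) of each of the 12040 tested autosomal genes in the 2 AKFP libraries (vertical axis) against the 4 KO and AKF libraries (horizontal axis), with the line of equality. Genes that rose (2310, red) lie above the line and genes that fell (2041, blue) below it, with *Pla2g2a* and *Fabp6* far above and *Isg15*, *Ifi27l2a* and *Nrn1* far below.

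The 4 factors were the first check of the label, and 1 of the 4 rose. *Klf9* stood at 36.0 and 38.4 FPKM in AKFP, 7.79 and 7.90 in KO, 11.1 and 10.7 in AKF, and 5.66 and 5.78 in WT. Both AKFP values lay above every other library, a rise of 1.89 ± 0.06 on the log2 scale (SE; limma adjusted p = 1.47e-05). *Ascl2* stood at 19 and 19.2 FPKM in AKFP, 12.4 and 12 in KO, 36.8 and 38.6 in AKF, and 10.7 and 12 in WT, so that AKFP lay between KO and AKF. It was thus higher than KO by 0.61 ± 0.07 (adjusted p = 0.00283) and lower than AKF by 0.94 ± 0.07 (difference -0.94, adjusted p = 0.000651). *Fosb* fell, at 12.4 and 9.77 FPKM in AKFP, against 38.2 and 25.4 in KO, 25.8 and 26.7 in AKF, and 31.8 and 33.2 in WT (-1.30 ± 0.16, adjusted p = 0.00212). *Purb*, the factor that sets AKFP apart from AKF by label, stood at 19.5 and 16.5 FPKM in AKFP, 14.3 and 17.1 in KO, and 15.9 and 16.8 in AKF, and the groups overlapped (0.16 ± 0.10, adjusted p = 0.249). *Mettl3* stood at 3.78 and 4.22 FPKM in AKFP, 3.62 and 3.47 in KO, 3.33 and 3.57 in AKF, and 3.23 and 3.56 in WT (0.15 ± 0.08, adjusted p = 0.163). A gene total cannot show the loss of an exon, nor tell a viral copy from the native one where the viral RNA lacks the native ends.

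The markers given for AKFP were *Klf9*, *Pla2g2a*, *Fabp6*, *Ereg* and *Nrn1*. *Pla2g2a*, a secreted phospholipase A2 of Paneth cells (chromosome 4, 138831857 to 138835186, plus strand), stood at 610 and 592 FPKM in AKFP, 14.6 and 11.5 in KO, 15.7 and 15.4 in AKF, and 9.17 and 8.17 in WT. It was 42.0 times as high in AKFP as in KO and AKF together, the largest fitted rise of any named gene (5.31 ± 0.10 on the log2 scale, adjusted p = 1.07e-06). GENCODE gives it the biotype of a polymorphic pseudogene, C57BL/6 mice are known to carry a disrupted copy, and *Pla2g5* overlaps it on the opposite strand, so without strand the reads of both cannot be told apart. *Pla2g5*, another secreted phospholipase gene, fell, at 5.19 and 3.55 FPKM in AKFP and between 6.21 and 6.78 in KO and AKF (-0.49 ± 0.12, adjusted p = 0.0222, not past the threshold without AKFP replicate 2, where the difference is -0.26, or without KO replicate 1 or 2). *Ereg* encodes epiregulin, a ligand of the EGF receptor, and stood at 4.29 and 5.34 FPKM in AKFP and at 0.313 or less in the other 6 libraries (2.33 ± 0.12, adjusted p = 0.000108). With 1 AKFP library *Ereg*, *Fabp6* and *Slc10a2* could not be tested, because they stayed under 1 FPKM in KO and AKF. For the same reason the filter fixed the direction of these genes in the main fit. *Nrn1*, which encodes the GPI-anchored protein neuritin, went the other way, at 0 and 0.0216 FPKM in AKFP, 9.05 and 9.35 in KO, 5.74 and 5.18 in AKF, and 9.51 and 9.53 in WT (-3.0 ± 0.07, adjusted p = 4.04e-06). *Fars2* and *Gm30177* overlap it on the opposite strand. *Nrn1* was under 1 FPKM in both AKFP libraries, so it could not be called higher. *Tubb3*, the other tested gene of the neural list, fell by 0.44.

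Genes near absence on one side were few. *Nrn1*, *Pyroxd2* and the non-coding *AI506816* were under 1 FPKM in both AKFP libraries and at 5 or more in the other 6, and *Fabp6* alone had the reverse pattern. This criterion and *AI506816* were chosen after the values were seen. *Pyroxd2*, an oxidoreductase gene, stood at 0.963 and 0.802 FPKM in AKFP and between 9.07 and 12.2 in KO and AKF. *AI506816* stood at 0.080 and 0.0324 FPKM in AKFP and between 36.1 and 41.4 in KO and AKF. *Exosc6*, an RNA exosome subunit, stood at 0.016 and 0.0251 FPKM in AKFP, 44.2 and 43.8 in KO, 39.6 and 4.77 in AKF, and 25 and 25.2 in WT (-4.68 ± 0.66, adjusted p = 0.00330). The second AKF library stood far below the first, and *Exosc6* lies within *Aars* on the same strand, so the split of fragments between the 2 genes is uncertain.

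Of 15 tested ileum and bile acid genes 7 rose and 1 fell, and of 13 tested proximal genes 6 fell and 0 rose. *Fabp6* and *Slc10a2* passed the filter only through the AKFP libraries, so their AKFP values were bound to lie above the others. With the filter over the 4 KO and AKF libraries alone, 5 ileum and bile acid genes rose. *Fabp6*, the bile acid carrier of ileal enterocytes (chromosome 11, 43596049 to 43601540, minus strand), stood at 21 and 18.6 FPKM in AKFP, 0.460 and 0 in KO, 0.754 and 0.435 in AKF, and was listed at 0 in both WT libraries (3.90 ± 0.17, adjusted p = 4.69e-05). *Slc10a2*, the ileal bile acid importer, stood at 4.69 and 5.63 FPKM in AKFP and between 0.513 and 0.713 in KO and AKF (1.93 ± 0.11, adjusted p = 0.000163). *Slc51b*, a subunit of the basolateral bile acid exporter, rose too (0.78), while its partner *Slc51a* (0.04, adjusted p = 0.805) and *Fgf15*, the ileal hormone that bile acids induce through FXR (0.23, adjusted p = 0.261), did not pass. Nor did *Nr1h4*, which encodes FXR (-0.45, adjusted p = 0.0591). *Nr0b2*, an FXR target, fell (-0.58), a call lost without AKFP replicate 2, KO replicate 1 or KO replicate 2. The median of the ileum and bile acid list was 0.23 against 0.04 over all genes, and that of the proximal list was -0.57. *Gata4*, the transcription factor of jejunal identity, stood at 28.4 and 28.9 FPKM in AKFP and between 48.5 and 53.8 in KO and AKF (-0.83 ± 0.06, adjusted p = 0.000276). *Cybrd1*, a duodenal iron reductase, stood at 0.556 and 0.661 FPKM in AKFP and between 4.59 and 7.24 in KO and AKF (-2.04 ± 0.15, adjusted p = 0.000358). Of 5 tested colon and stomach genes 3 rose, among them *Cdx1*, an intestinal homeobox factor (0.36), while *Cdx2*, the intestinal master factor, stood between 128 and 136 FPKM in AKFP, KO and AKF (-0.04, adjusted p = 0.630). Without AKFP replicate 1 or 2, 3 of the ileum and bile acid genes rose.

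Paneth cell genes were higher in part. *Defa32*, an alpha-defensin gene, stood at 1612 and 1782 FPKM in AKFP, 170 and 166 in KO, 170 and 189 in AKF, and 156 and 116 in WT (3.28 ± 0.12, adjusted p = 2.38e-05). *Defa22* (2.44), *Defa33* (2.39), *Defa20* (2.29), *Defa2* (2.25) and *Defa21* (2.25) were among the 12 largest rises as well. Among all 24 tested *Defa* genes, a family counted after its values were seen, 13 rose and 0 fell, and together they took 5.62% and 5.05% of the summed FPKM in AKFP libraries, 3.37% and 2.91% in KO, and 3.56% and 3.43% in AKF. Copies of this family are nearly identical, so the values of single members are uncertain. *Defa24* and *Defa17*, which had the highest levels of the listed defensins, did not pass (-0.19 and 0.10, adjusted p = 0.432 and 0.631). *Lyz1*, Paneth cell lysozyme, stood at 1605 and 1616 FPKM in AKFP, 737 and 660 in KO, and 962 and 1075 in AKF (0.93 ± 0.09, adjusted p = 0.000851), and the lectin *Itln1* (0.91) and the ribonuclease *Ang4* (0.69) rose too. *Mmp7*, the protease that activates defensins, did not pass (0.11, adjusted p = 0.343). Of 14 tested Paneth markers 7 rose and 1 fell, *Reg4* (-1.24), which enteroendocrine cells also express. The 7 include *Pla2g2a*, which has the biotype of a polymorphic pseudogene and is also among the genes known to vary between mouse strains. In bulk libraries fewer cells of a type and less RNA per cell cannot be told apart, here and for every cell type below.

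Of 17 tested enteroendocrine markers 12 fell, 3 rose and 2 did not pass, with a median of -0.92. *Chga*, the secretory granule protein chromogranin A, stood at 42.1 and 36.1 FPKM in AKFP, 81.3 and 81.1 in KO, 80.5 and 76.3 in AKF, and 43.3 and 33.5 in WT (-1.01 ± 0.11, adjusted p = 0.00133). *Sst*, somatostatin, stood at 2.86 and 6.20 FPKM in AKFP and between 20.7 and 33.1 in KO and AKF (-2.37 ± 0.33, adjusted p = 0.00330). The hormones *Gip* (-1.42), *Sct* (-1.40), *Ghrl* (-0.92) and *Cck* (-0.56), substance P precursor *Tac1* (-1.23) and the serotonin enzyme *Tph1* (-0.93) fell with them. The 3 that rose encode hormones of distal enteroendocrine cells. *Nts*, neurotensin, stood at 31.5 and 30.9 FPKM in AKFP, 3.55 and 4.78 in KO, and 2.02 and 3.20 in AKF (2.91 ± 0.16, adjusted p = 0.000113). *Pyy* stood at 9.80 and 9.85 FPKM in AKFP and between 1.82 and 3.62 in KO and AKF (1.47), and *Gcg*, the glucagon and GLP-1 precursor, rose by 0.46. *Neurog3*, the factor that specifies the lineage, stood at 18.4 and 8.97 FPKM in AKFP and between 7.97 and 21.7 in KO and AKF, and the groups overlapped (adjusted p = 0.593).

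Goblet and enterocyte genes gave a mixed picture. Of 11 tested goblet markers 1 rose and 3 fell, with a median of -0.01. *Zg16*, a mucus lectin, stood at 54.1 and 52.9 FPKM in AKFP, 138 and 142 in KO, and 226 and 155 in AKF (-1.58 ± 0.19, adjusted p = 0.00193). *Klk1*, a kallikrein, rose by 0.66, and the mucin *Muc2* (0.38, adjusted p = 0.126) and the trefoil peptide *Tff3* (-0.01, adjusted p = 0.962) did not pass. Of 20 tested enterocyte markers 8 fell and 1 rose, among them *Fabp1*, a fatty acid carrier, at 247 and 193 FPKM in AKFP, 670 and 640 in KO, 901 and 555 in AKF, and 1673 and 1471 in WT (-1.63 ± 0.20, adjusted p = 0.00203). The aminopeptidase *Anpep* (-1.19), the apolipoprotein *Apoa1* (-1.20) and *Mttp*, which loads lipoproteins (-0.76), fell, while the maltase *Mgam* rose (0.77). The sucrase *Sis* (0.13, adjusted p = 0.620) and the villus protein gene *Vil1* (0.02, adjusted p = 0.862) did not pass. The enterocyte falls numbered 4 without AKFP replicate 1 and 5 without AKFP replicate 2 or KO replicate 2. Tuft cell markers were low, with 2 of 12 tested and 0 called by limma. Their unadjusted p was 0.0186 and 0.0351 (*Sh2d6*, -0.33, and *Avil*, -0.35).

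Of 25 tested stem cell markers 12 rose and 2 fell, and of 29 tested cell cycle genes 19 rose and 0 fell. *Olfm4*, a secreted protein of crypt stem cells, stood at 504 and 509 FPKM in AKFP, 217 and 226 in KO, 231 and 293 in AKF, and 467 and 548 in WT (1.07 ± 0.11, adjusted p = 0.00115). *Lgr5*, the R-spondin receptor, did not pass, at 11.3 and 11.5 FPKM in AKFP, 9.23 and 9.55 in KO, 10.2 and 11.4 in AKF, and 14.5 and 15.7 in WT (0.16 ± 0.07, adjusted p = 0.101). The median of the stem cell list was 0.27. The transporter *Slc12a2* (0.65), the transcription factor *Sox9* (0.62) and the water channel *Aqp4* (0.57) rose. *Igfbp4*, which binds insulin-like growth factors, fell, at 6.22 and 6.14 FPKM in AKFP and between 24.4 and 27.0 in KO and AKF (-1.90 ± 0.18, adjusted p = 0.000782). The median of the cell cycle list was 0.34. The ribonucleotide reductase subunit *Rrm2* stood at 40.5 and 41.3 FPKM in AKFP and between 25.4 and 30.2 in KO and AKF (0.51 ± 0.08, adjusted p = 0.00423). *Mki67*, a marker of cycling cells, stood at 52.2 and 47.5 FPKM in AKFP and between 32.7 and 43.6 in KO and AKF, above each of them, without passing (0.38 ± 0.13, adjusted p = 0.0576). Cell cycle rises numbered 9 without AKFP replicate 1 and 1 without AKFP replicate 2. Stem cell rises numbered 5, 4 and 7 without AKFP replicate 1, AKFP replicate 2 and KO replicate 1.

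Among 15 tested Wnt targets 6 rose and 2 fell. *Sp5*, a direct Wnt target, fell, at 7.31 and 7.09 FPKM in AKFP and between 10.8 and 12.3 in KO and AKF (-0.63), and the cyclin *Ccnd1* rose (0.37). *Axin2*, the feedback inhibitor, stood at 33.5 and 26.4 FPKM in AKFP and between 21 and 26.9 in KO and AKF (adjusted p = 0.0787), and *Myc* at 38.1 and 52.1 in AKFP and between 39.1 and 47.4 in KO and AKF (0.06, adjusted p = 0.707). Of 14 tested BMP and TGF-beta genes 6 fell, and 3 Id genes, targets of BMP signalling that encode inhibitors of helix-loop-helix factors, were among them. *Id3* stood at 6.69 and 5.39 FPKM in AKFP, 17.4 and 16.2 in KO, 23.3 and 18.3 in AKF, and 7.27 and 6.65 in WT (-1.49 ± 0.12, adjusted p = 0.000428), with *Id1* at -1.28 and *Id2* at -0.55. The receptors *Bmpr1a* (0.27), *Tgfbr1* (0.43) and *Tgfbr2* (0.20) and the ligand *Tgfb1* (0.25) rose, and none of the 4 was called without AKFP replicate 1, AKFP replicate 2, KO replicate 1 or AKF replicate 1. Wnt rises numbered 3 without AKFP replicate 1 and 1 without AKFP replicate 2. Among 13 tested Notch genes 3 rose (23.1%) and 2 fell (15.4%), near the 19.2% and 17% over all tested genes. The falls were the ligand genes *Jag2* (-0.55) and *Dll4* (-0.39), and fewer genes rose without AKFP replicate 1 or 2.

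Of 26 tested interferon response genes 23 fell and 0 rose, with a median of -1.30 against 0.04 over all genes. Type I interferon acts on a transcription factor complex with STAT2 and IRF9, which binds the interferon-stimulated response element (ISRE) in promoters of antiviral genes. Promoter sequences of 3 falling members are shown because they carry that element, the RefSeq bases (GRCm38.p6) just before the annotated start, 5′ to 3′ on the strand of the gene. Capitals mark matches to GAAA, any 2 bases and GAAA, on either strand, merged where they overlap.
Isg15, chr4:156200819-156201018, minus strand: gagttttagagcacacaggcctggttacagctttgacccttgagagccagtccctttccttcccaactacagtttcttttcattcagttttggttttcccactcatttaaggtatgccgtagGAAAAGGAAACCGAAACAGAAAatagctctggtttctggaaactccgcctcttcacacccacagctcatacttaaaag
Ifit3, chr19:34583329-34583528, plus strand: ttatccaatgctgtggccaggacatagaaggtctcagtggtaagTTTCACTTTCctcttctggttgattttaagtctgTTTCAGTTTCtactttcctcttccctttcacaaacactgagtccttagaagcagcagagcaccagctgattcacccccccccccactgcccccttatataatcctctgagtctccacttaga
Oas1a, chr5:120907526-120907725, minus strand: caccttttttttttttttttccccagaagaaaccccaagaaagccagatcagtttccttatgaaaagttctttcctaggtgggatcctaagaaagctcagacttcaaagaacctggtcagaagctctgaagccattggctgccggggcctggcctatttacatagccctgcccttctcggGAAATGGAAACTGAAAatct

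*Isg15*, a ubiquitin-like antiviral protein (chromosome 4, 156199424 to 156200818), stood at 9.62 and 9.23 FPKM in AKFP, 74.2 and 117 in KO, 74.0 and 97.5 in AKF, and 1.54 and 1.71 in WT (-3.11 ± 0.18, adjusted p = 0.000163). Every AKFP value lay below every KO and AKF value and above both WT values. *Ifit3*, which binds foreign RNA in complex with other IFIT proteins, stood at 1.90 and 3.0 FPKM in AKFP, 11.7 and 25.3 in KO, 13.9 and 21.2 in AKF, and 0.473 and 0.695 in WT (-2.42 ± 0.31, adjusted p = 0.00238). *Oas1a*, a sensor of double-stranded RNA, stood at 6.11 and 6.29 FPKM in AKFP, 33.0 and 42.6 in KO, 30.0 and 44.2 in AKF, and 6.39 and 7.28 in WT (-2.40 ± 0.16, adjusted p = 0.000266). Unlike *Isg15* and *Ifit3*, *Oas1a* was no higher in AKFP than in WT. *Irf7*, the transcription factor that amplifies interferon production, stood at 3.74 and 3.37 FPKM in AKFP and between 20.6 and 26.0 in KO and AKF (-2.40 ± 0.12, adjusted p = 9.44e-05). *Ifi27l2a* (-4.27), *Slfn2* (-2.58), *Oas1g* (-2.52) and *Ifi27* (-2.43) were among the 12 largest falls too. The signal transducer *Stat2* fell (-0.72), *Irf9* did not pass (-0.69, adjusted p = 0.0826), and the chemokine *Cxcl10* stood at 3.23 and 3.36 FPKM in AKFP and between 2.59 and 4.53 in KO and AKF (adjusted p = 0.900). The falls numbered 14 without AKFP replicate 1 and 15 without AKFP replicate 2. *Oas1a* and *Oas1g*, like *Ifit3* and *Ifit3b*, are close copies, so their single values are uncertain.

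The same letters stood, on either strand, in the window from 250 bases before to 50 after the start of 2.97% of the 8559 tested genes with a RefSeq promoter. The letters were found in 13 of the 19 matched interferon members (68.4%), in 5.64% of genes that fell, in 17% of the 153 that fell by 1 or more on the log2 scale, in 2.19% of genes that rose, and in 0 of the 47 that rose by 1 or more. *Irf7*, *Oasl2*, *Ifit2* and *Xaf1* fell without a match in this window. Letters bound by AP-1 (TGA, any base and TCA, on either strand) stood in 5.06% of the same promoters, in 26.3% of the interferon members, in 19.1% of genes that rose by 1 or more and in 13.1% of genes that fell by 1 or more. They stood in 0 of the 15 matched members of the AP-1 and immediate early list. A nuclear receptor repeat (GGTCA, any base and TGACC) stood in 1 promoter.

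**Figure D3:**
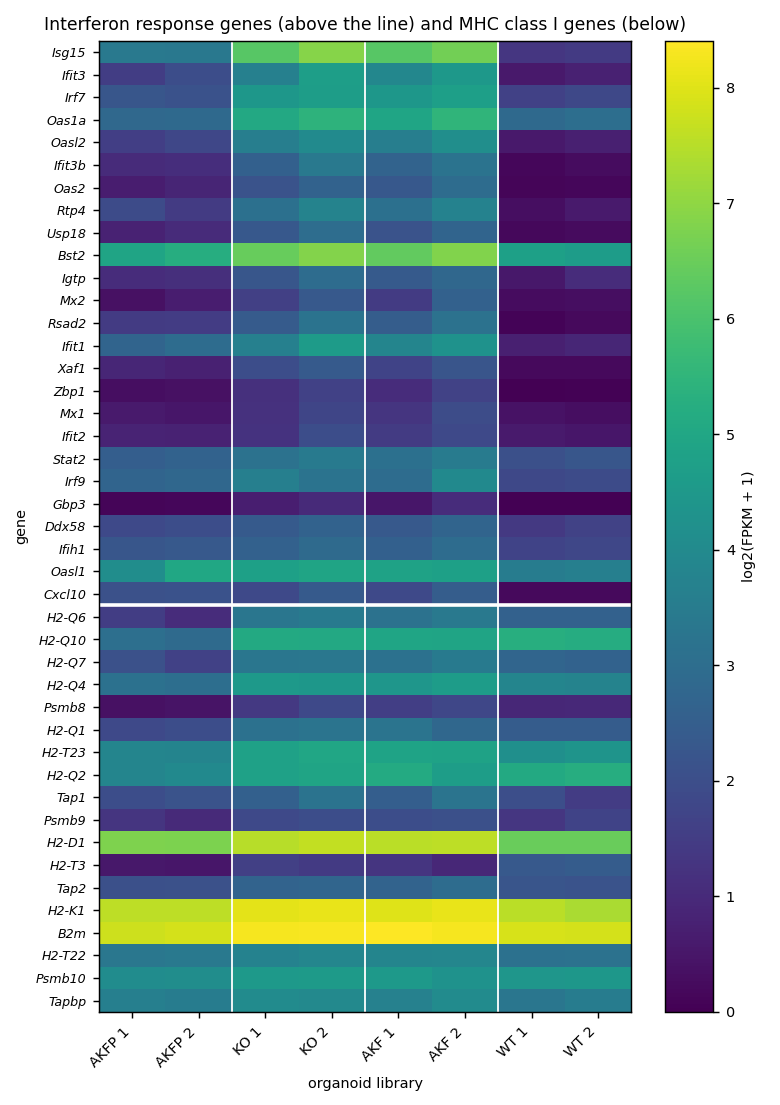
Level as log2(FPKM + 1) of 25 tested interferon response genes (above the white line) and the 18 tested MHC class I genes (below it), 1 row per gene and 1 column per library in the order AKFP, KO, AKF and WT. The 2 AKFP columns are darker than the 4 KO and AKF columns for 22 called interferon genes and 17 called MHC class I genes.

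MHC class I genes, which present peptides to cytotoxic T cells, numbered 18 tested, of which 17 fell and 0 rose, with a median of -0.83. *H2-D1*, a classical class I heavy chain, stood at 109 and 107 FPKM in AKFP, 182 and 196 in KO, 184 and 190 in AKF, and 88.3 and 88.0 in WT (-0.80 ± 0.06, adjusted p = 0.000296). *H2-Q10*, a secreted class I molecule, stood at 7.33 and 6.51 FPKM in AKFP, 33.1 and 33.0 in KO, 30.0 and 28.8 in AKF, and 38.0 and 35.9 in WT (-2.02 ± 0.06, adjusted p = 1.47e-05). For *H2-D1* the AKFP values were nearer to WT than to KO, and for *H2-Q10* they lay below WT too. *B2m*, the invariant light chain on chromosome 2, fell by 0.50, and *Tap2* and *Psmb8*, of peptide transport and the immunoproteasome, by 0.70 and 1.25. *H2* genes are close copies, so their single values are uncertain. MHC class II genes stayed below the filter, with 0 of 11 tested.

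Of 18 tested AP-1 and immediate early genes, which respond within minutes to growth factors and stress, 16 fell and 0 rose, with a median of -0.67. *Junb* stood at 121 and 115 FPKM in AKFP, 248 and 228 in KO, 220 and 209 in AKF, and 138 and 133 in WT (-0.93 ± 0.07, adjusted p = 0.000275). *Jun* stood at 131 and 129 FPKM in AKFP, 254 and 232 in KO, 214 and 250 in AKF, and 159 and 184 in WT (-0.86 ± 0.09, adjusted p = 0.00132). *Fos*, the partner subunit, fell less, at 213 and 222 FPKM in AKFP, 309 and 264 in KO, 262 and 253 in AKF, and 299 and 304 in WT (-0.32 ± 0.08, adjusted p = 0.0217). The stress factor *Atf3* (-0.90), *Maff* (-0.82), and *Zfp36*, which destabilises messenger RNA (-0.67), fell, and *Btg2* did not pass (-0.01, adjusted p = 0.965).

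EGF ligands moved apart. *Ereg* rose, as above, while *Areg*, amphiregulin, stood at 225 and 252 FPKM in AKFP, 318 and 362 in KO, 432 and 389 in AKF, and 109 and 105 in WT (-0.64 ± 0.09, adjusted p = 0.00301), and *Hbegf* fell by 0.75. *Egfr*, their receptor, did not pass (0.03, adjusted p = 0.727). Of 12 tested genes of the fetal-like and YAP list 2 rose (16.7%) and 5 fell (41.7%), against 19.2% and 17% over all tested genes. *Ereg*, which passed the filter only through AKFP, was 1 of these rises. With the filter over the 4 KO and AKF libraries alone, 1 gene of the list rose. *Ccn1* stood at 48.7 and 54.6 FPKM in AKFP and between 104 and 125 in KO and AKF (-1.09 ± 0.08, adjusted p = 0.000296), and *Ccn2* (-1.04), *Clu* (-0.70) and *Msln* (-1.38) fell too. *Ly6a*, a surface marker of regenerating epithelium, stood at 95.7 and 96.8 FPKM in AKFP, 53.9 and 113 in KO, and 130 and 69.0 in AKF, and the groups overlapped (adjusted p = 0.721). Those falls numbered 3 without AKFP replicate 2.

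Epithelial defence showed 3 rises (23.1%) and 1 fall (7.69%) among 13 tested genes, against 19.2% and 17% over all tested genes. *Nos2*, inducible nitric oxide synthase, stood at 5.94 and 6.76 FPKM in AKFP, 1.08 and 1.12 in KO, 1.09 and 1.06 in AKF, and 0.569 and 0.595 in WT (1.82 ± 0.08, adjusted p = 6.67e-05). *Duox2*, the oxidase that makes hydrogen peroxide at the mucosal surface, stood at 27.2 and 27.1 FPKM in AKFP, 6.30 and 7.48 in KO, 8.02 and 10.3 in AKF, and 1.39 and 1.44 in WT (1.66 ± 0.11, adjusted p = 0.000212), and its maturation factor *Duoxa2* rose by 0.71. The lectin genes *Reg3b* (adjusted p = 0.235) and *Reg3g* (adjusted p = 0.108) did not pass. The fall was *Ccl20*, a chemokine (-0.28, adjusted p = 0.0474), whose call 12 alternatives lost. Leaving out AKF replicate 1 gave 5 rises.

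The Krüppel-like factors, *Klf9* included, moved both ways, with 5 of 13 tested genes rising and 4 falling. *Klf2* fell, at 2.68 and 3.19 FPKM in AKFP and between 6.21 and 8.39 in KO and AKF (-1.11), as did *Klf4*, a factor of differentiated epithelium (-0.45), while *Klf5*, a factor of proliferating crypt cells, rose (0.35). Those rises numbered 2 and 1 without AKFP replicate 1 and 2. Among the 19 tested p53 targets 3 rose (15.8%) and 4 fell (21.1%), near the 19.2% and 17% over all tested genes. *Pmaip1*, which encodes the pro-apoptotic protein NOXA, stood at 28.6 and 29.4 FPKM in AKFP and between 51.3 and 56.6 in KO and AKF (-0.86 ± 0.05, adjusted p = 0.000186), and *Gdf15* fell by 0.77. *Zmat3*, an RNA-binding protein, stood at 6.86 and 6.39 FPKM in AKFP and between 3.38 and 4.04 in KO and AKF (0.66 ± 0.08, adjusted p = 0.00224), and the cyclin *Ccng1* rose by 0.52. *Cdkn1a*, the cell cycle inhibitor p21, stood at 45.3 and 47.2 FPKM in AKFP and between 51.2 and 65.9 in KO and AKF (-0.31 ± 0.10, adjusted p = 0.0454), a call lost under 11 alternatives, the omission of each AKFP, KO or WT library among them. In the cell death list 6 of 17 fell and 3 rose, and the falls included *Mlkl*, the executor of necroptosis (-1.05), and *Gsdmd*, the executor of pyroptosis (-0.69). The cell death rises numbered 1 without AKFP replicate 1 or 2.

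In the fatty acid oxidation and PPAR list 7 of 17 fell and 0 rose, with a median of -0.25: *Angptl4*, an inhibitor of lipoprotein lipase, stood at 0.404 and 0.371 FPKM in AKFP and between 2.30 and 3.82 in KO and AKF (-1.56 ± 0.13, adjusted p = 0.000534), and *Acadl*, an acyl-CoA dehydrogenase, fell by 0.74. Of 24 tested cytochrome P450, glucuronidation and glutathione genes 10 fell and 0 rose, with a median of -0.45. *Gsta1*, a glutathione transferase, stood at 165 and 178 FPKM in AKFP, 448 and 425 in KO, 586 and 305 in AKF, and 600 and 594 in WT (-1.32 ± 0.23, adjusted p = 0.00669), and *Nqo1*, a target of NRF2, fell by 0.58. The fatty acid falls numbered 2 without AKFP replicate 1 or 2 or KO replicate 1 or 2, and 4 without WT replicate 1 or 2. The cytochrome and glutathione falls numbered 5 without AKFP replicate 1 or 2, and 17 without AKF replicate 2. In the cholesterol list 3 of 17 rose (17.6%) and 1 fell (5.88%), against 19.2% and 17% over all tested genes. Fewer of its genes rose without AKFP replicate 1 or 2. Single rises among the 12 largest were the mitochondrial kinase *Ak4* (2.43), the sulfite oxidase *Suox* (1.98) and the peptidase *Naaladl1* (1.93). *Suox* stood at 38.9 and 40.9 FPKM in AKFP and between 8.39 and 10.1 in KO and AKF, and *Afp*, alpha-fetoprotein, among the falls, at 3.59 and 3.47 in AKFP and between 22.2 and 39.3 in KO and AKF (-2.82).

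Of 17 tested genes of the m6A machinery 10 rose and 2 fell, with a median of 0.31. The reader *Ythdf1* stood at 45 and 43.6 FPKM in AKFP, 31.1 and 33.6 in KO, 32.1 and 35.6 in AKF, and 20.7 and 21 in WT (0.41 ± 0.06, adjusted p = 0.00510). The readers *Ythdf2* (0.36) and *Ythdc1* (0.47) and the writer complex subunit *Virma* (0.43) rose. *Mettl14*, the partner of METTL3, fell, at 4.04 and 3.72 FPKM in AKFP and between 4.53 and 4.91 in KO and AKF (-0.22, adjusted p = 0.0438), and *Igf2bp3* by 0.33. Both calls were lost when any 1 library was left out. The rises numbered 2, 1 and 5 without AKFP replicate 1, AKFP replicate 2 and KO replicate 1. In the ribosome biogenesis list 8 of 16 rose and 0 fell, for example the nucleolar protein *Ncl* (0.39), with 4 and 2 rises without AKFP replicate 1 and 2 and 3 or 4 without KO replicate 1, KO replicate 2 or AKF replicate 1. In the integrated stress and unfolded protein list 6 of 19 rose, the serine synthesis enzyme *Psat1* among them (0.45), and 2 fell, one being *Ddit3*, which encodes the stress factor CHOP (-1.08). Those rises numbered 3 and 1 without AKFP replicate 1 and 2.

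**Figure D4:**
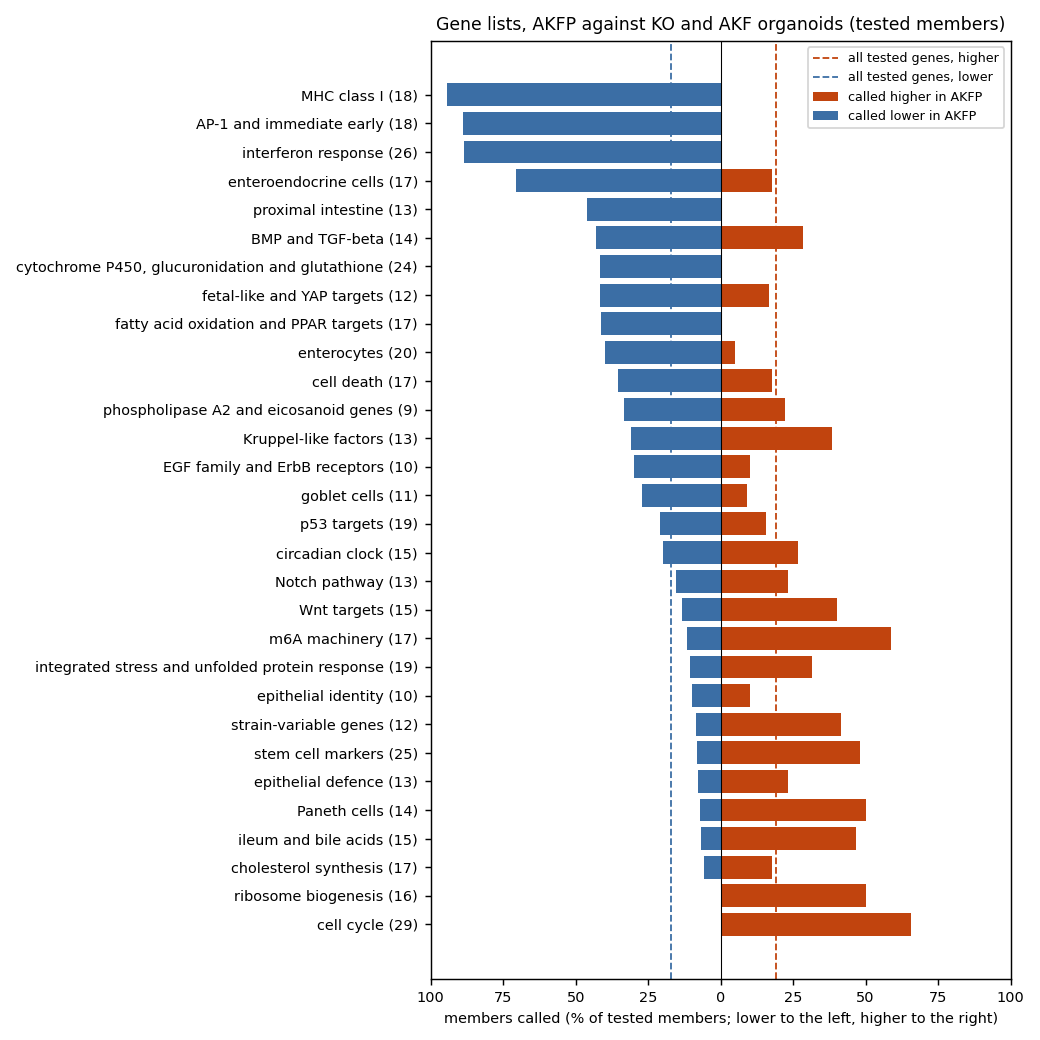
Share of the tested members of each gene list (number tested in brackets, lists with 9 or more) that rose in AKFP against KO and AKF organoids (red, right) or fell (blue, left), in percent, with the shares over all tested genes as dashed lines (19.2% and 17%). MHC class I, AP-1 and interferon lists have the highest shares that fell, and cell cycle genes the highest share that rose.

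Called genes were not spread evenly over the genome. On chromosome 17, 25.9% of tested genes fell and 12.4% rose, and on chromosome 18, 25.2% rose and 12.5% fell. Between 30000001 and 40000000 on chromosome 17 (mm10), where the *H2* genes lie, 66 of 164 tested genes fell, or 40.2%. Of the 18 *H2* genes there 16 fell, and without them 34.2% still fell, against 21% on the remainder of the chromosome. Only genes with *H2* symbols were left out, so any other MHC genes there remain in the 34.2%. Between 20000001 and 30000000 on chromosome 13, 34 of 68 tested genes fell (50.0%), and 28 of these were histone genes. Many of the histone genes were under 1 FPKM in both AKFP libraries, so they could not be called higher. Without histone genes 20.7% fell and 20.7% rose there. These windows were chosen after the values were seen, out of 209 of 10 Mb with 20 or more tested genes.

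**Figure D5:**
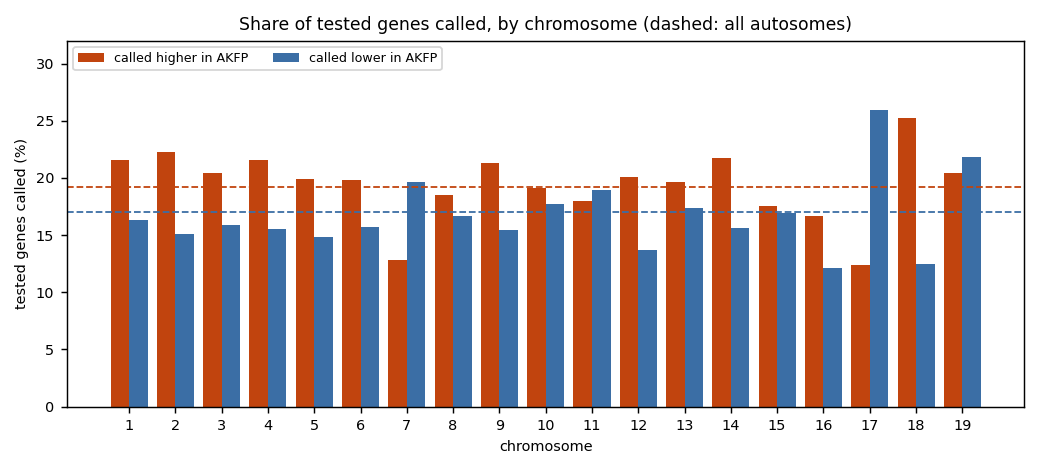
Share of tested genes, in percent, that rose (red) or fell (blue) in AKFP against KO and AKF organoids on each autosome, with the shares over all autosomes as dashed lines (19.2% and 17%). Chromosome 17 has the highest share that fell (25.9%) and chromosome 18 the highest share that rose (25.2%).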

How the data were processed

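RNA of mouse intestinal organoids was analysed from 1 deposited table with 8 library columns, matched to samples by title. Its header gives no unit. FPKM made by the authors was assumed, since the values resemble in format and range the deposited tissue files headed FPKM, which were otherwise not used. Submitters' processing notes list HISAT2 2.1.0, StringTie 1.3.3b and mm10, with no roles, and strandedness is not given in the sources used here. GENCODE M21 (GRCm38, which is mm10) gave symbols to 54809 of 54838 rows, and 108 symbols stand for several identifiers. Depth, roughly estimated from the value steps of single-exon genes, was 18.1 to 24.5 (in units of 1e6 fragments).

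Values were put on the log2(FPKM + 1) scale, which understates fold changes of low genes. Autosomal genes at 1 FPKM or more in at least 2 of the 6 AKFP, KO and AKF libraries were fitted with limma 3.58.1 in R 4.3.3 (trended eBayes, 1 mean per group, 8 libraries), and AKFP was set against the average of the KO and AKF means. P-values are two-sided, adjusted by Benjamini-Hochberg over all genes tested. A gene was called at an adjusted p under 0.05 with both AKFP values outside the range of the libraries set against them. An exact permutation test of 2 against 4 cannot go below p = 0.133. Separate cultures or animals are not stated for the 2 libraries of any group, so the p-values measure spread between libraries alone, which may be technical.

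Named were the 12 largest rises and falls among called genes averaging 5 FPKM or more on either side (without predicted, pseudogene, receptor-segment or small RNA genes, *Pla2g2a* kept as a given marker), fixed factor, marker and sex-linked genes, up to 4 called members per list, and other list members as examples chosen after their values were seen. The members and lists were chosen with earlier results of these data known. The pseudocount, filter, scaling, fitted samples, replicate block and calling rule were varied, and each library was left out in turn. Promoters came from RefSeq (GRCm38.p6), with 8559 tested genes matched by symbol. Some members counted in the lists are not reported here by name.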

Additional observations from a re-analysis of the deposited data

Results flagged for a closer look

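*Xist*, which lies outside the autosomal genes compared, stood at 47.53 FPKM in AKFP replicate 1 and 33.28 FPKM in AKFP replicate 2, above the 0.0123 and 0.0153 FPKM of the KO libraries, the 0.011 and 0.006 of the AKF libraries and the 0.0128 and 0.0052 of the WT libraries. It was looked at again because this is a signal in data that no comparison used.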

How the results depend on the processing

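The count of genes called against KO and AKF organoids together (4351) lay between 3502 (no filter on low values) and 4612 (KO and AKF pooled) under the alternatives that keep all libraries compared. With 1 library left out it lay between 1426 and 4350. Against KO alone the count of 3260 lay between 897 and 3473 with 1 library left out, against AKF alone that of 3142 between 946 and 2849, and the 259 calls of list members between 135 and 283. A fit that leaves 1 library in a group assumes that it varies like the other groups. Pooling KO and AKF gives no value for the comparisons with KO alone or AKF alone. Against KO and AKF together, more genes rose (2310) than fell (2041) in the main fit. Without a filter on low values 1712 rose and 1790 fell, and the other alternatives that keep all libraries compared had more rises. Falls also outnumbered rises when either AKFP library was left out. Of 2887 values of the 145 tested named genes under alternatives, 0 reversed, 95 lost the call and 8 gained it. Over all tested genes, deviations of libraries with the same replicate number correlated little, between -0.0441 and 0.129 across pairs of groups. Such a correlation cannot exclude pairing for some genes. *Ifit3* stood higher in the second library of each group, whereas *Isg15* did not in AKFP. With the replicate block 23 interferon response genes fell, as in the main fit. The fit with the replicate block called 4436 genes, 3522 against KO alone, 3398 against AKF alone and 261 list members. Depth is known only as an estimate and the table gives no counts, so no counting error is attached to low values. The causes of these changes were not tested.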

Other observations

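Of 45 tested histone genes (Hist symbols, counted after their values were seen) 31 fell and 0 rose, against 17% and 19.2% over all tested genes. Many of these genes, *Hist1h4m* included, were under 1 FPKM in both AKFP libraries, so they could not be called higher. The summed level of the histone genes was 71.0 and 62.3 FPKM in AKFP, 156 and 138 in KO, 153 and 120 in AKF, and 94.0 and 96.5 in WT. *Hist1h4m*, a histone H4 gene, stood at 0.950 and 0.628 FPKM in AKFP and between 4.81 and 7.13 in KO and AKF (-1.88 ± 0.15 by limma, adjusted p = 0.000482). Transcripts of these genes mostly lack a poly(A) tail. The non-coding genes *Gm26917* and *Gm42418* took 0.0963% and 0.0895% of the summed FPKM in AKFP, 0.607% and 0.544% in KO, 0.550% and 0.527% in AKF, and 0.130% and 0.101% in WT. The share of small and structural RNA differed in the same direction, and its part in the histone values was not tested.

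Circadian genes moved both ways, with 4 of 15 tested members rising (26.7%) and 3 falling (20%), against 19.2% and 17% over all tested genes. Fewer of them rose without AKFP replicate 2. *Per2*, a repressor of the clock, stood at 9.55 and 8.91 FPKM in AKFP and between 6.18 and 6.88 in KO and AKF (0.42, adjusted p = 0.00580 by limma), and its activator *Arntl* at 1.52 and 1.73 FPKM in AKFP and between 2.72 and 2.94 in KO and AKF (-0.54, adjusted p = 0.00443). The metallothionein genes *Mt1* and *Mt2* did not pass (0.08 and 0.13, adjusted p = 0.473 and 0.120), and both stood between 238 and 289 FPKM in the AKFP, KO and AKF libraries. Of 12 tested entries of genes known to vary between mouse strains 5 rose and 1 fell, the rises being *Pla2g2a*, both entries of *Nnt*, *Ide* and *Nlrp1b* and the fall *Mx1*. Without AKFP replicate 2, 3 rose and 0 fell. The main entry of *Nnt*, the mitochondrial transhydrogenase, stood at 19.5 and 17.7 FPKM in AKFP, 8.97 and 9.38 in KO, 7.23 and 7.50 in AKF, and 12.3 and 14.6 in WT (1.09, adjusted p = 0.000388). By biotype, 6.19% of the 614 tested non-coding genes outside pseudogenes rose and 23.9% fell, against 20.1% and 16.1% of the 10546 protein coding genes.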
